A study of Mus musculus with 4 samples.

Results

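Hba-a1, Hba-a2, Hbb-bs and Hbb-bt are the alpha and beta globin genes that adult-type red cells of the mouse use, and they were taken by name from 3624 genes measured in single cells of fetal liver. All 4 were found. Hemoglobin carries oxygen as a tetramer of alpha and beta chains around heme. Primitive red cells of the yolk sac use embryonic globins, and the fetal liver is the organ where definitive red cells with adult-type globins arise. Hbb-bs and Hbb-bt are the neighbouring adult beta genes of the haplotype carried by C57BL/6 mice, and Hba-a1 and Hba-a2 are the duplicated adult alpha genes. Transcription of both clusters in erythroid cells depends on GATA1, which takes over from GATA2 as progenitors commit to the erythroid lineage.

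The study compared 2 genotypes, with 2 samples each. Enhancer-deleted embryos (Gata2-77-/-) lacked on both alleles the -77 enhancer, a distal regulatory element of Gata2, and wild-type embryos carried it. Both were C57Bl/6J at E14.5, and cells were sorted from the liver as Lin-Sca1-Kit+CD34+, a gate used for common myeloid and granulocyte-monocyte progenitors, before droplet sequencing on the 10x Chromium platform. The deposited cells carry library letters, A and B for enhancer-deleted and F and I for wild type, and no letter is tied to a sample number. The labels name no cell type to which the deletion was limited. Nothing in the sources used here says that the samples came from separate litters, and p-values measure the spread between these libraries.

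Libraries A and B held 2235 and 2745 cells with 16837863 and 19921052 UMIs (unique molecular identifiers, 1 per captured transcript), and libraries F and I held 3042 and 1938 cells with 40117680 and 33913118 UMIs. The median was 7272 UMIs per cell in the enhancer-deleted and 14292.5 in the wild-type libraries. Levels below are CPM, the usual scale of counts corrected for library size, with the UMIs of the 3624 genes as the library size. Gata2 itself stood at 7.48 and 6.73 CPM in A and B, against 26.3 and 23.2 CPM in F and I. Its counts do not read the deletion, which lies outside the transcript. Xist, expressed from the inactive X chromosome, had 8171 UMIs in B and 16675 in I but 0 in A and 1 in F, so each genotype had 1 library with Xist and 1 without.

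The 4 genes lie in 2 pairs. In mm10 with the GENCODE M21 annotation, Hba-a1 (ENSMUSG00000069919.7) is at chr11:32283511-32284465 and Hba-a2 (ENSMUSG00000069917.7) at chr11:32296489-32297298, both on the + strand with starts 12.978 kb apart. Hbb-bs (ENSMUSG00000052305.6) is at chr7:103826534-103828096 and Hbb-bt (ENSMUSG00000073940.3) at chr7:103812524-103813996, both on the - strand with starts 14.1 kb apart. Within each pair the coding sequences differ at 1 base, of 429 in the alpha pair and of 444 in the beta pair. After the stop codon the alpha copies are identical over the 74 bases that both annotated transcripts hold, while the beta copies are 70.1% identical and share no stretch over 8 bases. The split of UMIs between Hba-a1 and Hba-a2 is therefore uncertain. The beta genes can be told apart from the end of the transcript, but from which part of it the reads came is not given in the sources used here.

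The upstream sequences are shown because the copies of a pair are alike in one case and not in the other. They are the 250 bases before the RefSeq start (GRCm38.p6), written 5′ to 3′ on the strand of the gene, at chr11:32296242-32296491 for Hba-a2, chr7:103827929-103828178 for Hbb-bs and chr7:103813924-103814173 for Hbb-bt. Capitals mark 4 motifs, searched on either strand: GATAA is the core that GATA factors bind, CACCC is bound by KLF factors such as KLF1, CCAAT is bound by NF-Y, and the TATA-binding protein binds TATAA. Hbb-bt also holds ATTGG, which is the NF-Y motif read on the other strand, and TTATA, the reverse of the TATA motif.
Hba-a2: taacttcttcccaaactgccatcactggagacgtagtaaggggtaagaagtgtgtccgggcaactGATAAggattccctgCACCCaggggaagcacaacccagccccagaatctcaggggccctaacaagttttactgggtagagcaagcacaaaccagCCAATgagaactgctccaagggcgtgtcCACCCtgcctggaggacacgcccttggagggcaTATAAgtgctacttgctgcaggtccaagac
Hbb-bs: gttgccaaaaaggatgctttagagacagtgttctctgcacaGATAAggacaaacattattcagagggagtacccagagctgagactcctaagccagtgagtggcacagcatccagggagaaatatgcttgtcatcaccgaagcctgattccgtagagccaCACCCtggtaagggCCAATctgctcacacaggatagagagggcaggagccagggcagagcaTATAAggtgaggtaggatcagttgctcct
Hbb-bt: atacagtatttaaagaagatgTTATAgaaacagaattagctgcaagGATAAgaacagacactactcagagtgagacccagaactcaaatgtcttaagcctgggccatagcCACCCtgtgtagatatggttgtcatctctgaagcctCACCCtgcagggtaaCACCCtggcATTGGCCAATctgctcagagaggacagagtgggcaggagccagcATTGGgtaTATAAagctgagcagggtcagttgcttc
The Hba-a1 window repeats that of Hba-a2 over 247 bases without a mismatch, shifted by 3. The windows of Hbb-bs and Hbb-bt were 69.3% identical over their alignment. GATAA lay 182 and 185 bases before the start in Hba-a1 and Hba-a2, and 209 and 204 bases before it in Hbb-bs and Hbb-bt. TATAA lay 27 to 30 bases before the start in all 4. Hbb-bt held 3 CACCC matches, at 140, 104 and 89 bases, against 1 in Hbb-bs, at 90 bases. Among 32851 promoter windows of this length, GATAA occurred in 22.6%, CACCC in 52.0%, CCAAT in 33.8% and TATAA in 22.8%, and all 4 motifs together in 0.968%. GENCODE places the start upstream of the RefSeq one in all 4 genes, least so in Hba-a2, so that the windows overlap the longer annotated transcripts and positions before the start depend on the annotation. A match to these letters is a description of the sequence and not a binding site.

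Globin transcripts were lower in enhancer-deleted than in wild-type progenitors for all 4 genes when all cells of a library were summed. Hbb-bs, the more abundant beta globin in wild type, fell 8.36-fold, Hba-a1 9.12-fold and Hba-a2 10.3-fold, while Hbb-bt fell 4.07-fold. Sums over all cells mix the number of red cell precursors with the level in each cell.

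Hba-a1 stood at 70.9 and 54.7 CPM in A and B, against 453 and 661 CPM in F and I. Its means were 62.8 ± 11.5 CPM in enhancer-deleted and 557 ± 147 CPM in wild-type libraries (SD, n = 2 each). Every enhancer-deleted value lay below every wild-type value, and the log2 fold change was -3.19 (SE 0.23, edgeR quasi-likelihood test, adjusted p = 0.00359). Hba-a2 followed it, with 39.7 and 36.8 CPM in A and B, against 288 and 480 CPM in F and I (log2 fold change -3.37, SE 0.25, edgeR adjusted p = 0.00359). The alpha genes thus moved together, as far as their near-identical sequences let them be counted apart.

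Hbb-bs had 195 and 169 CPM in A and B, against 1102 and 1859 CPM in F and I. It was the highest of the 4 in both wild-type libraries, with a log2 fold change of -3.06 (SE 0.26, edgeR adjusted p = 0.00564). Hbb-bt had 209 and 190 CPM in A and B, against 626 and 950 CPM in F and I. In both enhancer-deleted libraries it was above Hbb-bs, whereas it was below Hbb-bs in wild type, and its log2 fold change was -2.03 (SE 0.20, edgeR adjusted p = 0.00726). Without library A the adjusted p of Hbb-bt was 0.0551 at a log2 fold change of -2.14. Of 3622 genes tested, 8.86% passed the adjusted p of 0.05, 2.76% as higher and 6.1% as lower, and all 4 globins were among the lower ones. Between the libraries without Xist, Hbb-bs was at 195 CPM in A and 1102 CPM in F, and between those with Xist at 169 CPM in B and 1859 CPM in I.

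**Figure D1:**
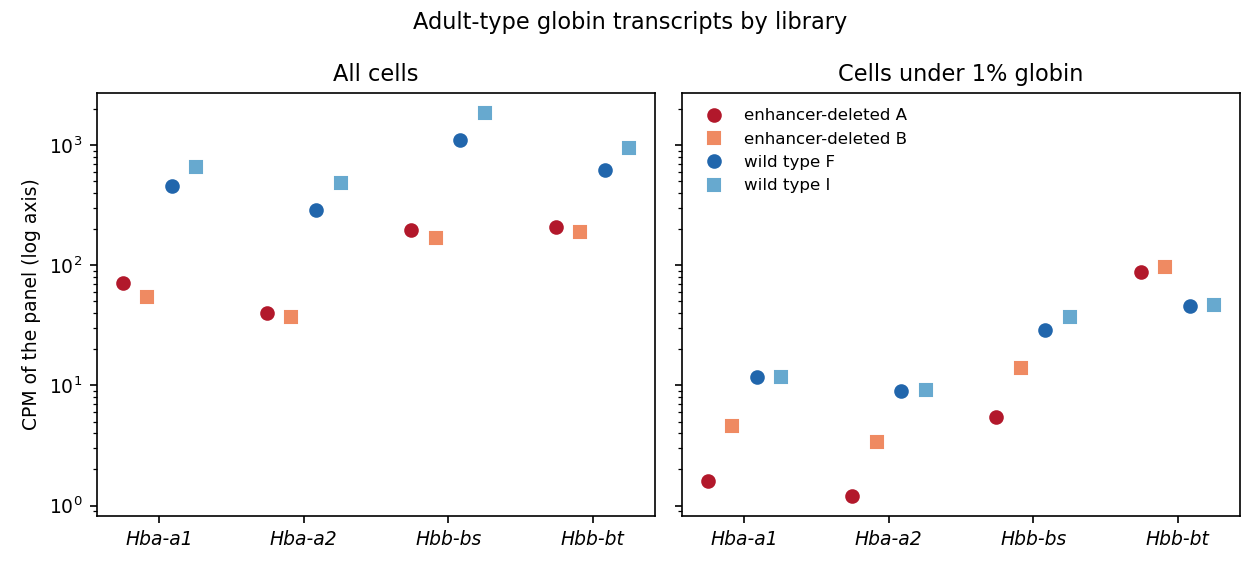
Level of each globin gene in CPM of the panel (log axis) in enhancer-deleted libraries A and B and wild-type libraries F and I, summed over all cells (left) or over cells in which the 4 globins took under 1% of UMIs (right); each point is 1 library. Over all cells the enhancer-deleted points lie below the wild-type ones for every gene, from 36.8 against 288 CPM or more for Hba-a2. In cells under 1% globin the Hbb-bt points of A and B, at 87.3 and 96.1 CPM, lie above those of F and I, at 45.5 and 46.2 CPM.

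Nearly all globin UMIs of wild-type libraries came from few cells. A cell was called globin-rich when the 4 globins made up at least 1% of its panel UMIs. Libraries A and B held 3 such cells each, or 0.134% (95% Clopper-Pearson interval 0.0277 to 0.392%) and 0.109% (0.0225 to 0.319%) of their cells, against 31 each in F and I, or 1.02% (0.693 to 1.44%) and 1.60% (1.09 to 2.26%). The mean shares were 0.122% ± 0.0176 in enhancer-deleted and 1.31% ± 0.410 in wild-type libraries (SD, n = 2 each), a 10.8-fold lower share without the enhancer. The shares did not overlap, and the exact two-sided permutation test gave p = 0.333, the smallest that 2 against 2 libraries allow. Intervals cover counting error only.

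The cut did not fall within a continuum. No cell lay between 0.536% and 1.99% globin: the cells just under the cut were HSPC-like cells of library A at 0.509% and 0.536%, and those just over it were cells of library F at 1.99% and 2.88%. A cut at 2% removed 1 cell of F, and one at 0.5% added 2 of A. At least 100 globin UMIs per cell gave the same numbers of cells as the 1% cut, 3 and 3 in A and B and 31 and 31 in F and I.

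Within globin-rich cells the globin load varied from 4.07% to 50.1% of UMIs in A and from 30.3% to 52.5% in B, against 1.99% to 79.5% in F and 2.92% to 84.6% in I. The medians were 17.6% and 34.8% in A and B, and 28.0% and 58.5% in F and I, so that the ranges of the genotypes overlapped. With 3 cells in each enhancer-deleted library, a difference in globin load per rich cell was not detectable.

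**Figure D2:**
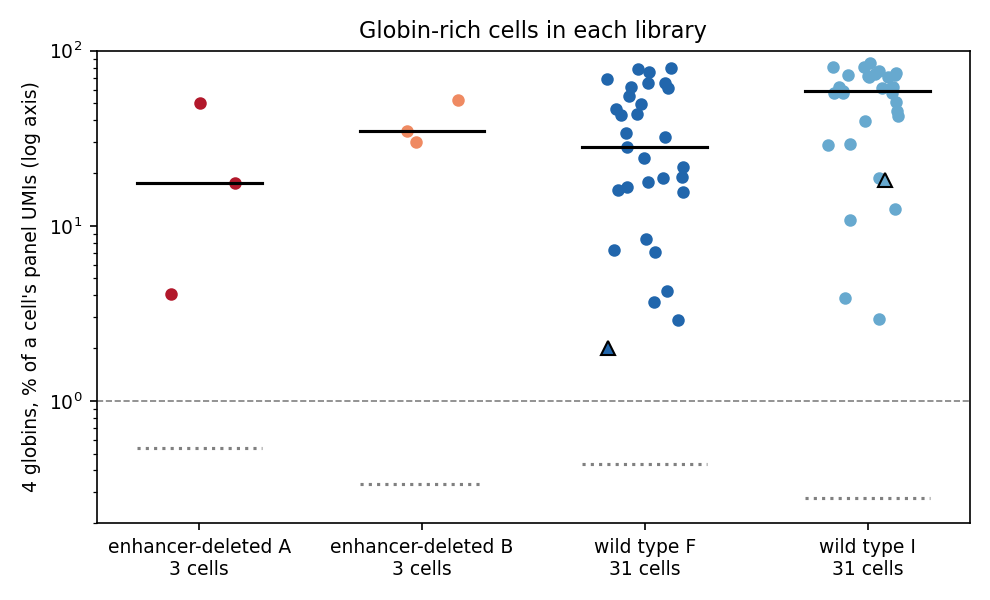
Share of a cell's panel UMIs taken by the 4 globins (log axis) for each of the globin-rich cells of enhancer-deleted libraries A and B and wild-type libraries F and I. Dots are cells of the erythroid-like cluster, outlined triangles are neutrophil-like cells, black bars are medians, the dashed line is the 1% cut and dotted bars mark the highest cell under it. Libraries A and B had 3 points each and F and I had 31 each, and no point lies between the dotted bars and 1.99%.

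Cells were clustered with the 4 globins left out, and 1 cluster carried 12 of 12 measured erythroid markers and was called erythroid-like. It held 3 and 3 cells in A and B and 51 and 37 in F and I. Every globin-rich cell of A and B, and 30 of the 31 in each of F and I, fell into it. The other 2 lay in the neutrophil-like class: the one in F had 15390 UMIs with 1.99% globin and 459 UMIs of neutrophil markers, and the one in I had 28775 UMIs with 18.4% globin and 682 such UMIs. In UMIs the cell of I stood at percentile 95.1 of its library and the cell of F at percentile 68.0. No doublet caller was run, and whether these cells were doublets was not tested.

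Globin-rich cells also carried transcripts of other red cell genes. On the scale of UMIs other than globin, Alas2, the first enzyme of heme synthesis in erythroid cells, reached 103, 1030, 1027 and 2649 CPM in rich cells of A, B, F and I, against 0.208 CPM or less in the other cells of each library. Klf1, an activator of beta globin transcription, stood at 446, 1499, 988 and 1086 CPM in rich cells, against 1.07, 0.301, 14.0 and 8.87 CPM in the others. Gata1 stood at 206, 187, 229 and 227 CPM in rich cells, against 0.417, 0.502, 12.6 and 9.73 CPM in the others. The values in rich cells of A and B rest on few UMIs: 3 and 11 of Alas2, 13 and 16 of Klf1, and 6 and 2 of Gata1.

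In both wild-type libraries, rich cells exceeded other cells in 7 of 7 red cell membrane genes, 13 of 14 heme and iron genes, 10 of 11 other erythroid genes and 7 of 11 erythroid transcription regulators, against 20.97% of the 3620 genes other than globins. The exceptions included Alas1, the heme synthesis enzyme of other tissues, at 17.3 and 11.6 CPM in rich cells of F and I, against 94.4 and 87.2 CPM in the others. Gata2 stood at 8.63 and 5.81 CPM in rich cells, against 26.5 and 23.4 CPM in the others, and Myb, a regulator of immature progenitors, at 12.9 and 17.4 CPM, against 150 and 148 CPM. Gm15915, a noncoding transcript, stood at 4.32 and 0 CPM, against 13.9 and 7.74 CPM. These are levels per class of cells, chosen on their globin, and were not tested.

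In wild type the globin-rich cells carried few transcripts of the sort gate. Kit had 1 UMI in all rich cells of F and 1 in those of I, which is 4.32 and 5.81 CPM, against 42.1 and 45.6 CPM in the other cells. In the 30 erythroid-like ones among them in each library Kit had no UMI. Cd34 had 2 and 1 UMIs in all rich cells, or 8.63 and 5.81 CPM, against 187 and 212 CPM in the others. In A and B the rich cells had 0 Kit UMIs and 4 and 1 Cd34 UMIs, but with 3 cells each a Kit level like that of the others, 40.4 and 39.6 CPM, was not detectably different from 0. Surface protein was not measured.

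Markers of other cell types were also counted in rich cells. Summed HSPC markers, 9 measured, stood at 171 and 0 CPM in rich cells of A and B and 8.63 and 5.81 CPM in those of F and I, against 298, 314, 215 and 215 CPM in the other cells of A, B, F and I. Summed neutrophil markers, 13 measured, stood at 411 and 749 CPM in rich cells of A and B and 2546 and 4305 CPM in those of F and I, against 5715, 5540, 17392 and 12908 CPM in the others. Of the neutrophil marker UMIs in rich cells of F and I, 459 and 682 were in the neutrophil-like cell of each. Of the late granule genes, Camp was at 0, 0, 4.32 and 5.81 CPM in rich cells of A, B, F and I. Lcn2 was at 0, 0, 0 and 5.81 CPM, and Ngp at 0 in every library's rich cells. Other neutrophil markers were higher there: Elane had 34.3, 0, 742 and 895 CPM, and Prtn3 had 206, 281, 557 and 1423 CPM. Hmox1, the 1 measured marker of erythroblastic island macrophages, had 0, 93.7, 34.5 and 5.81 CPM in rich cells, against 1.96, 2.81, 3.59 and 2.32 CPM in the others. Their part in the globin result was not tested.

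The ratio of alpha to beta UMIs in globin-rich cells was 0.347 (95% interval 0.329 to 0.366) in A and 0.335 (0.317 to 0.355) in B, against 0.436 (0.430 to 0.442) in F and 0.411 (0.406 to 0.416) in I. Both enhancer-deleted ratios lay below both wild-type ratios, with means of 0.341 ± 0.00831 and 0.423 ± 0.0178 (SD, n = 2 each, exact permutation p = 0.333). All values of A and B here rest on 3 cells each, and the intervals leave out the spread between cells. In A, 1 cell alone had a ratio of 0.447, above those of F and I, and the other 2 together had 0.339. Spread between cells was not tested. Hbb-bt made up 39.1% and 37.6% of the beta UMIs in rich cells of A and B, against 35.1% and 33.2% in F and I (exact permutation p = 0.333). Hba-a2 made up 35.7% and 40.1% of the alpha UMIs in A and B, against 38.7% and 42.0% in F and I, and here the libraries of the genotypes overlapped.

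The erythroid-like cluster of wild type held a tail of cells with little globin. Under 1% globin it had 21 cells in F and 7 in I, and none in A or B. Summed over these cells, alpha UMIs outnumbered beta UMIs. The sums were 178 alpha and 113 beta UMIs in F, a ratio of 1.58 (95% interval 1.24 to 2.01). In I they were 54 alpha and 20 beta UMIs, a ratio of 2.70 (1.59 to 4.76). The intervals leave out the spread between cells. In 1 cell under the cut, of any class, Hba-a1 reached 30 UMIs in F and 23 in I, and Hba-a2 reached 18 and 13. Single cells can thus weigh heavily in these sums, which was not tested. By cell, alpha exceeded beta in 9 of the 21 cells of F and beta exceeded alpha in 9, and in I alpha exceeded beta in 4 of 7 and beta exceeded alpha in 1. Between 1% and 10% globin the ratio was 0.447 in the 1 cell of A, 0.545 over 6 cells of F and 0.391 over 2 cells of I. At 10% and over it was 0.339 and 0.335 in A and B, over 2 and 3 cells, and 0.430 and 0.409 in F and I, over 24 and 28 cells.

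The low-globin cells were erythroid by other genes. Klf1 stood at 573 and 434 CPM of non-globin UMIs in F and I, and Gata1 at 142 and 121 CPM. Alas2 was at 3.95 and 0 CPM, against 1660 and 3698 CPM in the cells of F and I at 10% globin and over. Kit, which marks cells of the gate, was at 59.2 and 69.4 CPM in the low-globin cells and at 0 in the cells of F at 10% and over. Cells were ordered here by their own globin share, so the ranges are a description and their ratios were not tested.

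**Figure D3:**
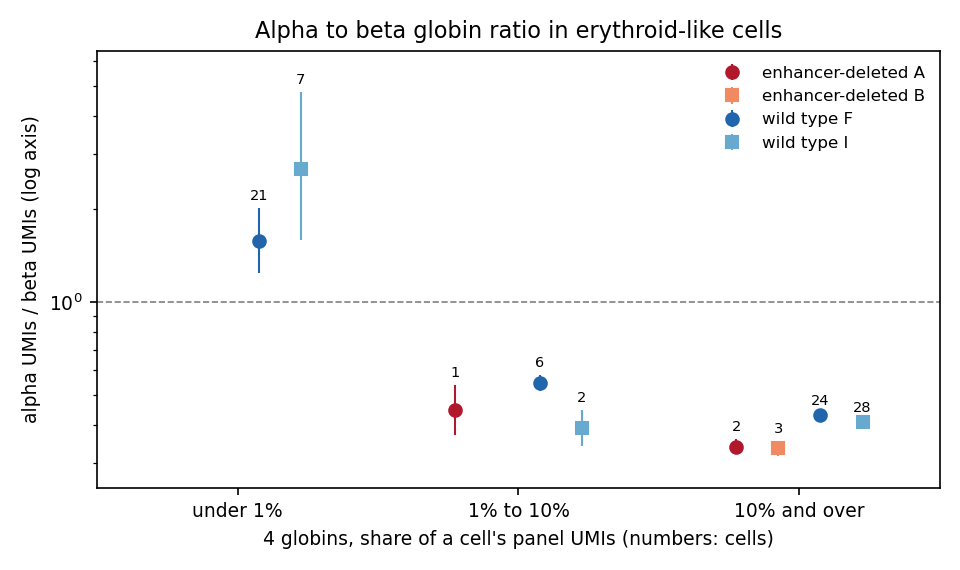
Ratio of alpha to beta globin UMIs (log axis) summed over erythroid-like cells of each library, by the share of a cell's panel UMIs taken by globin; bars are 95% counting intervals, numbers are cells, and the dashed line marks equal UMIs. The sums over wild-type cells under 1% globin lie above the line, at 1.58 and 2.70. Every sum over cells at 1% and over lies below it, from 0.335 to 0.545. The intervals leave out the spread between cells.

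Outside globin-rich cells and the erythroid-like cluster, Hbb-bs and the alpha genes were at a low level in all cell classes, while Hbb-bt was much higher in one of them. Cells under the 1% cut held 5.48 and 14.0 CPM of Hbb-bs in A and B, against 29.1 and 37.4 CPM in F and I. Erythroid-like cells under the cut, 21 in F and 7 in I, had 256 and 60.7 CPM of Hbb-bs. Across the other classes with at least 20 cells, Hbb-bs ran from 1.86 to 7.29 CPM in A and from 7.39 to 28.2 CPM in B, against 19.3 to 34.7 CPM in F and 30.8 to 50.1 CPM in I. Erythroid-like cells under the cut also had 446 and 286 CPM of Hba-a1 and 256 and 182 CPM of Hba-a2 in F and I. Over all cells under the cut, those included, Hba-a1 had 1.61 and 4.62 CPM in A and B, against 11.8 and 11.8 CPM in F and I. Hba-a2 had 1.19 and 3.37 CPM, against 8.97 and 9.10 CPM. Over the same cells the ratio of alpha to Hbb-bs UMIs was 0.511, 0.572, 0.714 and 0.558 in A, B, F and I. In globin-rich cells it was 0.570, 0.538, 0.672 and 0.614. By class, without erythroid-like cells, it ran from 0.206 to 2 in A and from 0.308 to 1 in B. In F it ran from 0.375 to 0.794 and in I from 0.353 to 1, and some classes held few UMIs. Both wild-type libraries had more Hbb-bs and alpha globin in cells under the cut, and more globin over all cells. A had less of these transcripts than B in cells under the cut. Over all cells the 4 globins summed to 514 CPM in A and 451 CPM in B. The source of these low levels was not tested. Free RNA in the droplets was not measured apart from cells.

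Hbb-bt in cells under the cut went the other way, with 87.3 and 96.1 CPM in A and B, against 45.5 and 46.2 CPM in F and I. The means were 91.7 ± 6.22 CPM in enhancer-deleted and 45.9 ± 0.511 CPM in wild-type libraries (SD, n = 2 each), which is 2.00 times as much without the enhancer (exact permutation p = 0.333). Hbb-bt made up 94.1% (95% interval 92.8 to 95.2%) and 87.3% (85.8 to 88.7%) of beta UMIs in these cells of A and B, against 61.0% (59.3 to 62.8%) and 55.3% (53.4 to 57.2%) in F and I. In all 4 libraries that share was above the share in globin-rich cells, where it was at most 39.1%. Only 58.2% and 49.4% of all Hbb-bt UMIs of A and B came from globin-rich cells, against 92.8% and 95.2% in F and I, while for the other 3 genes the share was at least 90.9% in every library.

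**Figure D4:**
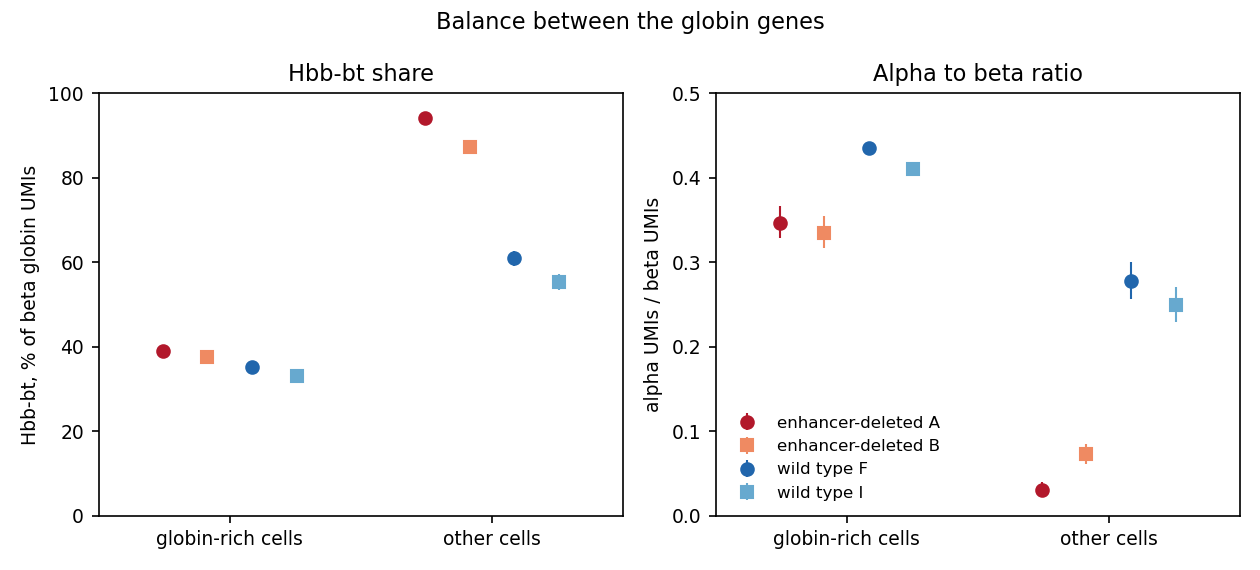
Share of Hbb-bt among beta globin UMIs (left, in %) and ratio of alpha to beta globin UMIs (right) in globin-rich cells and in other cells of enhancer-deleted libraries A and B and wild-type libraries F and I; bars are 95% counting intervals, some smaller than the points. The Hbb-bt share was 33.2% to 39.1% in globin-rich cells and 55.3% to 94.1% in other cells, highest in A and B.

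Hbb-bt outside globin-rich cells was concentrated in the HSPC-like class, which comprised 4 clusters named from markers of hematopoietic stem and multipotent progenitor cells such as Hlf, Meis1 and Hoxa9. It stood at 258 and 247 CPM in HSPC-like cells of A and B, against 131 and 121 CPM in those of F and I. Hbb-bs in the same cells had 7.29 and 15.04 CPM in A and B, against 29.2 and 35.9 CPM in F and I. HSPC-like cells made up 27.7% and 30.5% of the cells under the cut in A and B, and 18.5% and 24.8% in F and I. They held 82.1% and 77.2% of the Hbb-bt UMIs of those cells in A and B, and 46.7% and 53.0% in F and I, but only 37.0% and 32.4% and 16.3% and 19.5% of the Hbb-bs UMIs.

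The ratio of Hbb-bt to Hbb-bs UMIs in HSPC-like cells was 35.4 and 16.4 in A and B, against 4.49 and 3.36 in F and I. In globin-rich cells it was 0.641 and 0.603 in A and B, and 0.541 and 0.496 in F and I. If the Hbb-bs UMIs of HSPC-like cells came with Hbb-bt in the proportion of the rich cells of their library, Hbb-bt would stand at 4.67 and 9.07 CPM in A and B and at 15.8 and 17.8 CPM in F and I. The measured levels were 55.3 and 27.2 times that in A and B, and 8.31 and 6.77 times in F and I. In the monocyte/macrophage-like class the measured level was 2.96, 2.55, 1.64 and 1.10 times the corresponding one in A, B, F and I.

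Among the classes with at least 20 cells other than the erythroid-like one, none had as much Hbb-bt as HSPC-like cells in any library. The 21 erythroid-like cells of F under the cut had 189 CPM, above the HSPC-like cells of F, and the 7 of I had 113 CPM. The next highest of the remaining classes in A, B and I was the cluster led by Rpgrip1, Slc39a1 and Supt16, which carried no name and had a median of 3994.5 UMIs per cell, at 60.5 and 90.6 CPM in A and B, and 25.3 and 114 CPM in F and I. In I its interval, 75.5 CPM at the low end, reached that of the HSPC-like cells, so these neighbours did not differ beyond counting error there. The cluster led by Car1, Gm15915 and Rnase12, with Gata1 and Klf1 among its leading genes, was next in F and had 65.0 and 62.7 CPM of Hbb-bt in F and I over 273 and 138 cells. Its Hbb-bs, at 27.9 and 30.8 CPM, was within the range of the non-erythroid classes, and A and B had 4 and 2 cells of this cluster. The cluster led by Cox4i2 had 34.6 and 36.0 CPM of Hbb-bt in A and B and 39.4 and 38.9 CPM in F and I. Monocyte/macrophage-like cells had 10.1 and 20.97 CPM in A and B and 22.1 and 19.4 CPM in F and I, and neutrophil-like cells under the cut 4.32 and 11.3 CPM in A and B and 16.8 and 17.4 CPM in F and I.

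**Figure D5:**
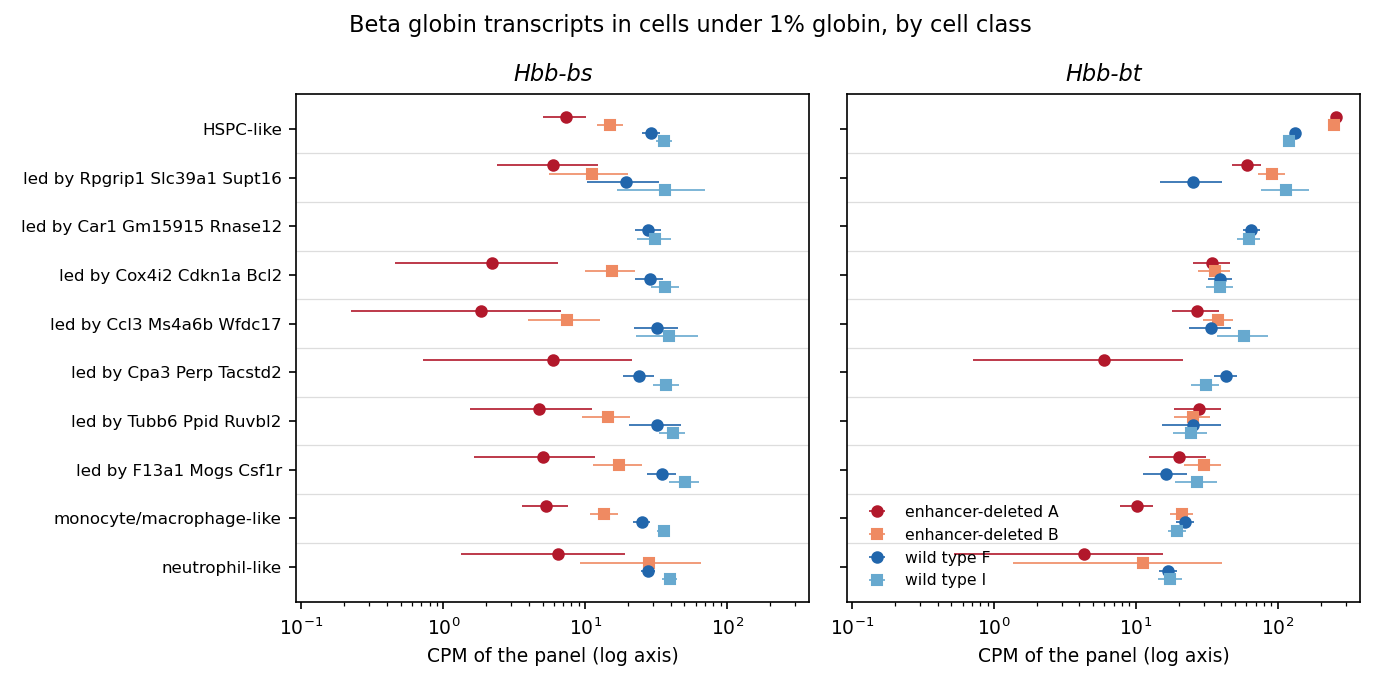
Level of Hbb-bs (left) and Hbb-bt (right) in CPM of the panel (log axis) in cells under 1% globin, by cell class and library, with 95% Poisson intervals; erythroid-like cells, and classes with fewer than 20 cells in a library, are not drawn. Hbb-bs stays between 1.86 and 50.1 CPM, while Hbb-bt is highest, among the classes drawn, in HSPC-like cells, at 258 and 247 CPM in A and B and 131 and 121 CPM in F and I.

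Within HSPC-like cells Hbb-bt rose 1.93-fold without the enhancer (log2 fold change 0.95, SE 0.087, edgeR adjusted p = 0.00334), while Hbb-bs fell (log2 fold change -1.56, SE 0.26, edgeR adjusted p = 0.0364). Of 3572 genes tested in this class 1.65% passed in either direction, 0.336% as higher and 1.32% as lower. Both enhancer-deleted libraries were above both wild-type libraries for Hbb-bt. The call of Hbb-bt held without each library in turn, with adjusted p from 0.00503 to 0.0430. The call of Hbb-bs was lost without F (adjusted p = 0.0560) and without I (adjusted p = 0.197). Hba-a1 had 0.643 and 4.68 CPM in A and B, against 9.47 and 11.6 CPM in F and I (edgeR adjusted p = 0.119), and Hba-a2 0.857 and 4.35 CPM, against 6.21 and 8.35 CPM (edgeR adjusted p = 0.187). With a term for Xist in the fit, which sets A beside F and B beside I, Hba-a1 passed (log2 fold change -1.98, edgeR adjusted p = 0.0296). Over all cells under the cut the levels of Hbb-bs and the alpha genes were also lower in A and B, as was globin in the whole library, and the part of globin from other cells in these differences was not tested.

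The higher Hbb-bt was seen in each of the HSPC-like clusters. In the cluster led by Mzb1 it was 356 and 277 CPM in A and B, against 136 and 153 CPM in F and I. The cluster led by Gimap6 had 225 and 244 CPM, against 139 and 142 CPM, and that led by Gm5111 had 167 and 222 CPM, against 121 and 69.8 CPM. The small cluster led by Rpgrip1, of 55 and 45 cells in A and B and 34 and 27 in F and I, had 115 and 82.1 CPM, against 61.8 and 33.1 CPM. In none of the 4 did the levels of the genotypes overlap. The small cluster, however, held only 17 and 8 Hbb-bt UMIs in A and B and 9 and 5 in F and I, where counting error is wide. The clusters share the same libraries, so they are not separate replicates.

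Hbb-bt was spread over many HSPC-like cells, none of which had more than 0.536% globin. At least 1 UMI was found in 44.6% and 46.1% of HSPC-like cells of A and B, and 42.6% and 44.3% of those of F and I, which were sequenced more deeply. After thinning every cell to 4346 UMIs, which left out 855 enhancer-deleted and 140 wild-type cells below that depth over all classes, the share was 37.3% and 36.7% in A and B, against 26.0% and 20.7% in F and I. The means were 37.0% ± 0.463 in enhancer-deleted and 23.4% ± 3.72 in wild-type libraries (SD, n = 2 each, exact permutation p = 0.333). In monocyte/macrophage-like cells, taken for comparison, the share was 3.88% and 8.20% in A and B, and 9.58% and 7.24% in F and I. Whether that class makes no Hbb-bt of its own was not tested. Unthinned HSPC-like cells had medians of 7535, 6892, 11213.5 and 13882 UMIs in A, B, F and I, and monocyte/macrophage-like cells medians of 7907, 7840, 17424 and 23643 UMIs.

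For Hbb-bs the thinned shares of these classes lay closer together than for Hbb-bt in every library. In HSPC-like cells the Hbb-bs share was 2.88% and 6.64% in A and B, and 11.2% and 14.4% in F and I. In monocyte/macrophage-like cells it was 1.46%, 5.88%, 11.04% and 15.7% in A, B, F and I. HSPC-like cells were thus higher in A, B and F and lower in I, and this was not tested. The most Hbb-bt in 1 HSPC-like cell was 36 and 42 UMIs in A and B, and 37 UMIs in both F and I. Cells with at least 10 Hbb-bt UMIs made up 5.65% and 3.58% of the class in A and B, and 4.86% and 4.03% in F and I. The tenth of HSPC-like cells with the most Hbb-bt held 62.8% and 59.2% of its UMIs in A and B, and 67.3% and 68.7% in F and I. Over all cells under the cut, 148 and 177 cells of A and B and 95 and 66 cells of F and I had 3 or more Hbb-bt UMIs with no Hbb-bs UMI. The reverse, 3 or more Hbb-bs UMIs with no Hbb-bt UMI, was found in 0 and 1 cells of A and B and in 16 and 38 cells of F and I.

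The genotype difference of Hbb-bt was compared between HSPC-like cells and the 4 other classes with at least 50 cells in every library. The log2 fold change was larger in HSPC-like cells by 1.32 than in monocyte/macrophage-like cells (SE 0.19, edgeR adjusted p = 6.93e-06), by 1.13 than in the cluster led by Cox4i2 (SE 0.17, edgeR adjusted p = 0.000873) and by 0.89 than in the cluster led by Tubb6 (SE 0.25, edgeR adjusted p = 0.0182). Against the cluster led by F13a1 it was larger by 0.64 (SE 0.29), which did not pass (edgeR adjusted p = 0.522). By this test 24.5% of all genes differed in either direction against monocyte/macrophage-like cells, 0.977% against the Cox4i2 cluster, 2.43% against the Tubb6 cluster and 0.613% against the F13a1 cluster. For Hbb-bs and the alpha genes none of the 12 such differences passed in edgeR. Before adjustment 1 of them, that of Hba-a2 against the F13a1 cluster, was under 0.05. These comparisons were chosen after the levels by class had been seen.

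Within the other 4 classes, Hbb-bt did not pass the edgeR test in any, at log2 fold changes of -0.38 in monocyte/macrophage-like cells and -0.18, 0.26 and 0.07 in the clusters led by Cox4i2, F13a1 and Tubb6, and 0 of these had an unadjusted p under 0.05. In these classes 1.87%, 1.08%, 0.425% and 0.171% of all genes passed in either direction. Hbb-bs passed in the cluster led by Cox4i2, with a log2 fold change of -1.81 (SE 0.38, edgeR adjusted p = 0.0159). There the call was lost without F (adjusted p = 0.0775) and without I (adjusted p = 0.131). In all, 3 of 19 tests of a globin gene in a class passed. Where classes of at least 20 cells were admitted 4 of 27 passed, the added one being Hbb-bs in the cluster led by Ccl3 (log2 fold change -2.67, SE 0.45, edgeR adjusted p = 0.00469). Of all genes, 13 of 3494 passed in that cluster. In the unnamed cluster led by Rpgrip1 0 of 3502 passed, and in neutrophil-like cells 12 of 3538. The neutrophil-like sums hold the globin-rich cells of that class: in I, Hba-a1 had 952 UMIs with them and 66 under the cut.

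Without the erythroid-like cluster, the all-cell sums of Hba-a1, Hba-a2 and Hbb-bs still had log2 fold changes of -2.95, -3.13 and -2.84 but did not pass (edgeR adjusted p = 0.0826, 0.0765 and 0.0737). That of Hbb-bt turned to 0.44 (edgeR adjusted p = 0.382). In this fit 7.77% of genes passed in either direction. The sums without this cluster still hold the 2 globin-rich neutrophil-like cells of wild type, and the fit was added after the data had been seen.

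Other genes of the pathway were read from the same all-cell fit. Of the regulators of erythroid transcription, 11 were measured, of which 4 fell, 1 rose and 6 did not pass, against 6.1% of all genes that passed as lower and 2.76% as higher. Gata1 fell to 0.772 and 0.602 CPM in A and B, against 13.8 and 10.8 CPM in F and I (log2 fold change -4.22, SE 0.39, edgeR adjusted p = 0.00677). Klf1 fell to 1.84 and 1.10 CPM, against 19.6 and 14.3 CPM (log2 fold change -3.59, edgeR adjusted p = 0.00878). Myb and Gata2 fell, with log2 fold changes of -0.79 and -1.86, and Ikzf1, a lymphoid and myeloid regulator that also acts at globin genes, rose by 0.25 (edgeR adjusted p = 0.0410). Gfi1b, a repressor needed in erythroid and megakaryocyte cells, had a log2 fold change of -0.98, Zfpm1, the GATA1 partner FOG1, of -1.10, and Nfe2, of -0.23. Lmo2 at 0.32, Ldb1 at 0.05 and Bcl11a, a repressor of embryonic globin genes, at -0.03 did not pass either.

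Of 14 measured genes of heme synthesis and iron, 7 fell and 7 did not pass, against 6.1% of all genes that passed as lower. Alas2 stood at 0.297 and 0.552 CPM in A and B, against 6.06 and 13.7 CPM in F and I (log2 fold change -4.54, SE 0.64, edgeR adjusted p = 0.0150). Alas1 stood at 21.8 and 22.1 CPM, against 93.7 and 86.5 CPM (log2 fold change -2.09, SE 0.084, edgeR adjusted p = 0.00147), nearly all of it outside globin-rich cells. Slc25a37, the mitochondrial iron importer mitoferrin, Cpox, a later heme enzyme, and Tfrc, the transferrin receptor, fell, with log2 fold changes of -0.76, -0.89 and -0.72. The median log2 fold change of the list was -0.41, against 0.00 over all genes.

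Of 7 measured red cell membrane genes 4 fell and 3 did not pass, where 6.1% of all genes passed as lower. Slc4a1, the anion exchanger band 3, stood at 0.594 and 0.653 CPM in A and B, against 5.26 and 6.52 CPM in F and I (log2 fold change -3.28, SE 0.43, edgeR adjusted p = 0.0132). Ermap and Rhd, a protein of the Rh complex, fell, with log2 fold changes of -4.30 and -3.84, while Rhag, its partner, had a log2 fold change of -3.05 that did not pass (edgeR adjusted p = 0.0745). Of 11 other erythroid genes 6 fell, against the same 6.1% of all genes, among them Car2, a carbonic anhydrase (log2 fold change -1.25), Blvrb, biliverdin reductase B (-1.84), Gm15915 (-3.98) and Mt1, a metallothionein (-0.95). Car1, another carbonic anhydrase, also fell, to 0.119 and 0 CPM in A and B, against 11.8 and 5.28 CPM in F and I. The medians were -3.05 and -0.95 on the log2 scale for these 2 lists.

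These counts rest on few libraries and cells. Without library A the numbers that fell were 1, 1, 0 and 2 for regulators, heme and iron, membrane and other erythroid genes, and without library B they were 4, 1, 1 and 2. Without I the heme and iron count was 4. Without the erythroid-like cluster the numbers were 4, 1, 2 and 3, and the all-gene count of calls was 66 without A and 112 without B, against 321. The embryonic globins, the alpha-like Hbq1 genes and Ahsp, the alpha globin chaperone, were not found by name among the 3624 genes, so they could not be analysed.

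The genes whose levels were most like the summed globins included Alas2 and the membrane genes Slc4a1, Rhag and Rhd. Over 39 sums of a class in a library, in 11 classes, the Pearson correlation of log2(CPM + 1) with the summed globins was 0.93 for Alas2, 0.93 for Slc4a1, 0.93 for Trim10 and 0.92 for Cldn13, Rhag and Rhd. Mrap and Tmcc2 were also among the 10 highest, at 0.91 and 0.90. The sums share libraries, and erythroid-like cells supply the high end of all these genes.

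Outside the erythroid-like cluster the ranking against Hbb-bt alone was made over 37 sums. Gimap9, a GTPase of the lymphoid GIMAP family, came first at a correlation of 0.75, followed by Mtf2 at 0.74, Mettl9 at 0.72, Gimap1 at 0.71 and Hoxa9, a homeobox gene of stem cells, at 0.71. Car2, a carbonic anhydrase of the erythroid list, ranked ninth at 0.66, and Car2 and Gfi1b also counted as markers of the HSPC-like cluster led by Mzb1. Mycn, at 0.66, and Hoxa9 are among the markers from which the HSPC-like class was named. The correlation of Hbb-bt with Hba-a1, Hba-a2 and Hbb-bs over the same sums was 0.32, 0.27 and 0.32. This pattern was chosen after the levels by class had been seen.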

How the data were processed

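Single-cell RNA sequencing measured transcripts in sorted fetal liver progenitors of 4 samples, 2 per genotype. The values deposited by the authors are counts (UMIs, all whole numbers) of each gene in each cell, and the other deposited files give gene symbols, genotype and library letter. Per the submitters' processing notes Cell Ranger 2.0.2, Seurat 2.3.4 and mm10 were used, and how genes and cells were chosen is not given in the sources used here. Cells follow the order of the grouping file, which Xist by library bears out. Cell barcodes were not given, so barcodes shared by libraries were not counted.

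The 4 genes, the gene lists and the tests were chosen with earlier results of these data known. Sums of UMIs per library went into the two-sided quasi-likelihood test of edgeR 4.0.16 in R 4.3.3, after filterByExpr and with TMM factors, at a Benjamini-Hochberg threshold of 0.05. In simulated data of 3624 genes the all-cell fit recovered 92% of 1.5-fold and 100% of 2-fold changes and called 13 unchanged genes. Every simulated gene had the same spread between libraries (coefficient of variation 0.0924), and genes with few UMIs were not among those changed. The rates therefore do not hold for genes with more spread, such as the globins in wild type. Shares and ratios were tested by exact permutation of the 4 libraries, which cannot go below p = 0.333. Intervals are exact 95% ones and cover counting error.

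Clusters came from scanpy 1.11.5 (python-igraph 0.11.9): 1000 variable genes without the globins, 30 components, 15 neighbours, Leiden resolution 1. A cluster was named from at least 3 markers detected in 10% of its cells and 2-fold above the other clusters, and the names were not checked by surface protein. Classes were fitted where every library held 50 cells, and differences between classes with the library as a factor. Results were recomputed without the filter, scaled by size factors or totals, by the Wald test of DESeq2 1.42.0, on equal or thinned cells, with a term for Xist, at other cuts and resolutions, and leaving out each library. Genes named are the 4 globins, all measured regulators, up to 5 of each other list by smallest p, and the 10 most like the globins, of which some are not reported here. Others were named after their values were seen.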

Additional observations from a re-analysis of the deposited data

Results flagged for a closer look

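The genotype difference of Hbb-bt in HSPC-like cells differed from that in 3 other classes by an edgeR test of the difference itself. The log2 fold change, enhancer-deleted over wild type, was larger in HSPC-like cells by 1.32 than in monocyte/macrophage-like cells, by 1.13 than in the cluster led by Cox4i2, Cdkn1a and Bcl2, and by 0.89 than in the cluster led by Tubb6, Ppid and Ruvbl2. Against the fourth class tested, the cluster led by F13a1, it was larger by 0.64 and did not pass (edgeR adjusted p = 0.522). Against monocyte/macrophage-like cells 24.5% of all genes passed this test, and the comparisons were chosen after the levels by class had been seen. Each genotype has 2 libraries, and both enhancer-deleted libraries were above both wild-type libraries in HSPC-like cells. The libraries of the enhancer-deleted embryos were the shallower ones, with a median of 7272 against 14292.5 UMIs per cell, and the part of depth in this difference was not tested.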

How the results depend on the processing

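No paired analysis was possible because the deposited cells carry library letters and no replicate numbers, so the fit with a replicate block was not run. A term for Xist, which pairs A with F and B with I from the data and not the labels, was fitted instead. The limits are 2 libraries per genotype, a deposited panel of genes, and 3 globin-rich cells in each enhancer-deleted library.

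Of the values recomputed without leaving out a library, 111 kept their direction and side of the threshold or, for counts, stayed within 1.5 times, while 5 moved, 2 reversed, 5 newly passed and 4 no longer passed. The term for Xist called 480 genes. The DESeq2 Wald test called 734 genes, against 321, and 7 fallen regulators. Without the erythroid-like cluster, chosen after seeing the data, Hba-a1, Hba-a2 and Hbb-bs had -2.95, -3.13 and -2.84 on the log2 scale and no longer passed, Hbb-bt reversed to 0.44, and 1, 2 and 3 heme, membrane and other erythroid genes fell; the removed cells held most globin UMIs. In HSPC-like cells Hba-a1 passed with a term for Xist (-1.98), and Hbb-bs did not at resolution 1.5 (-1.51). In monocyte/macrophage-like cells Hba-a1, Hba-a2 and Hbb-bs passed at resolution 1.5 (-2.38, -2.77 and -2.42) and Hbb-bs at 0.5 (-2.05). Of all genes in that class, 280 of 3577 passed at resolution 1.5 and 54 of 3576 at 0.5, against 67 of 3577 at resolution 1. The cause was not tested. Over all cells the share with an Hbb-bt UMI was higher in enhancer-deleted libraries after thinning and 9.77 percentage points lower (-9.77) without it, where wild-type cells are deeper.

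Leaving out each library gave 66 to 291 genes past the threshold, and 1 to 5, 1 to 5, 0 to 4 and 2 to 8 fallen regulators, heme, membrane and other erythroid genes. Log2 fold changes over all cells ran from -3.44 to -2.94 for Hba-a1, -3.67 to -2.999 for Hba-a2, -3.37 to -2.68 for Hbb-bs and -2.28 to -1.74 for Hbb-bt. For Hbb-bs they ran from -2.16 to -1.20 in HSPC-like cells, and in the clusters led by Cox4i2, F13a1 and Tubb6 from -3.83 to -1.14, -3.03 to -1.34 and -2.95 to -1.44. Hbb-bt, not called there, ran from -0.11 to 0.60 in the F13a1 cluster (-0.06 without B), from -0.011 to 0.19 in the Tubb6 cluster and from -0.96 to 0.0042 in monocyte/macrophage-like cells. In HSPC-like cells it ran from 0.88 to 1.03. A fit limited to cells under the globin cut was given as levels with no test, since those cells are chosen on globin.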
